A study of Homo sapiens with 6 samples.

Results

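CIITA and 7 DNA-binding partners of the MHC class II enhanceosome were followed in melanoma tumors by RNA sequencing. The 8 genes were taken by name, as the class II transactivator, the RFX complex (RFX5, RFXAP, RFXANK), the NF-Y complex (NFYA, NFYB, NFYC) and CREB1. All 8 were found by their Ensembl identifiers among the 60617 listed in each file, and all 8 passed the low-count filter that left 20423 genes to be tested. The samples were 3 anle138b and 3 untreated tumors, all xenografts of WM983-B, an established human melanoma line, so both groups share 1 line and no genetic change separates them. Anle138b, a diphenyl-pyrazole that binds α-synuclein oligomers, was given systemically. The sources used here give no dose, duration or host strain. Whether each tumor grew in its own animal is not stated, and the p-values therefore reflect library-to-library spread, which may be technical.

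The class II genes are read only where a complete complex sits on a short promoter module. RFX holds the X box, CREB1 the neighbouring X2 box and NF-Y the Y box, which has a CCAAT core. CIITA does not bind DNA itself: it docks on these factors and brings in histone acetyltransferases and the transcription machinery. RFX, NF-Y and CREB1 are made in most cell types, whereas CIITA is normally limited to antigen-presenting cells and to cells that have met interferon gamma. Loss of CIITA or of any RFX subunit in humans causes bare lymphocyte syndrome, in which class II molecules are missing.

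The module on which the partners meet is shown for 3 target genes that were called raised, as the 150 bases before the RefSeq start site (GRCh38.p14, gene strand, 5′ to 3′). HLA-DRB1 encodes a beta chain of HLA-DR (chr6:32589849-32589998, minus strand), HLA-DOA a chain of the modulator HLA-DO (chr6:33009592-33009741, minus strand), and CD74 the invariant chain (chr5:150412911-150413060, minus strand). Capitals mark the X core GCAAC and, downstream of it, the Y core as ATTGG. In CD74 they mark the Y core as CCAAT alone.
HLA-DRB1: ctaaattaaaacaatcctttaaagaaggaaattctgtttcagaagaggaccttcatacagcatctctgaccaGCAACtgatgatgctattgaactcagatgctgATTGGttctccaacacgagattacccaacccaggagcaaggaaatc
HLA-DOA: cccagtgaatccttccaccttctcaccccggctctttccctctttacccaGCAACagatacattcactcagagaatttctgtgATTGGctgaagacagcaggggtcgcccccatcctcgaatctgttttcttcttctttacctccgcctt
CD74: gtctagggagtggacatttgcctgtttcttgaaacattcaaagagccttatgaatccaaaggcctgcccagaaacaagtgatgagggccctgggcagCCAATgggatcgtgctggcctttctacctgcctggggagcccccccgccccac

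In HLA-DRB1 the X core began at position -78 and the Y core at -46, with 27 bases between them. In HLA-DOA the positions were -100 and -67, with 28 bases between. Promoter windows from 250 bases before to 50 after a start site were searched on both strands for the Y core CCAAT, the X core GCAAC and the X2 core TGACG. Of the 12 class II targets listed, 11 had a window, of which 10 held the Y core, 5 the X core and 5 the X2 core. Over all 35116 windows the shares were 34.6% for the Y core, 33.6% for the X core and 24.6% for the X2 core. The X core GCAAC followed 15 to 40 bases later by ATTGG, the Y core read from the opposite strand, was searched in either orientation of the window and found for 3 of the 11 targets, HLA-DRB1, HLA-DRB5 and HLA-DOA, and in 0.957% of all windows. HLA-DRB1 and HLA-DRB5 are near-identical, so their matches are not separate observations. Of the 8 members themselves, RFX5, RFXAP, RFXANK, NFYA, NFYC and CREB1 had 12 windows in all. Counted by gene over all its windows, 3 of these 6 held the Y core, 3 the X core, 3 the X2 core and 0 the spaced pair; RFX5, RFXANK and NFYC had 3 windows each, so these counts are not on the per-window scale of the shares above. CIITA, NFYB and HLA-DRA were not among the windows matched. A match is a run of letters and not a measured binding site.

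The libraries held 12400782 to 27599159 gene counts. The titles fell into 2 naming sets whose meaning was not given: a 4-library set with 2 tumors of each group, and a deeper 2-library set that holds replicate 3 of each group. Replicates were numbered here in listing order within a group, and equal numbers pair no tumors. The fit therefore carried a term for the set. Of the 8 melanocyte lineage markers (such as PMEL, MLANA and SOX10) all 8 were measured, with a summed level of 15433 to 18991 CPM (counts scaled to a common library total) in anle138b and 14016 to 18255 CPM in untreated tumors, and 0 were called by edgeR, 0 by limma and 1 by DESeq2, with 4 at an unadjusted p under 0.05 in edgeR. Their log2 fold changes ran from -0.46 to 1.42, the highest being TYRP1, a melanin synthesis enzyme that did not pass (adjusted p = 0.0692) and was singled out after its values were seen. Over all genes tested, edgeR called 1.05%, and 8.49% had an unadjusted p under 0.05. The 4 of 8 markers at that level were above this share, so these counts do not show the markers to be unmoved. Mitochondrially encoded genes took 1.38% to 3.09% of counts. How mouse reads were handled is not stated in the sources used here.

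CIITA was the 1 member called, and it rose (chromosome 16, 10866222 to 10943021, GRCh38, plus strand). It had 443, 475 and 880 counts in anle138b replicates 1 to 3, against 167, 157 and 203 counts in untreated replicates 1 to 3. Scaled by TMM for library size, these were 33.9, 37.9 and 31.1 CPM in anle138b tumors and 10.2, 11.6 and 8.61 CPM in untreated tumors. Every treated tumor stood above every untreated tumor, which held for 4.03% of all genes tested. The fitted rise was 3.40-fold (95% interval 2.81 to 4.12), or 1.77 ± 0.12 on the log2 scale with its SE over 3 tumors a group (adjusted p = 0.000229 in the quasi-likelihood test of edgeR). Among all genes tested 1.05% were called, 0.656% as raised and 0.397% as lowered, and CIITA stood at rank 46 from the highest log2 fold change. In bulk tumors, a change in the number of cells that express a gene and a change in its RNA per cell cannot be told apart.

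Both naming sets gave this rise, and 19.9% of all genes tested had the same direction in both sets with no overlap inside either. The difference of log2 CPM between anle138b and untreated tumors was 1.71 in the 4-library set and 1.84 in the 2-library set. The test of the difference between sets gave 0.13 ± 0.25 on the log2 scale (adjusted p = 0.945, edgeR interaction term). CIITA was lowest in the 2-library set within each group, with a set term of -0.26 ± 0.13 (adjusted p = 0.184; 15.5% of genes tested were called for this term). The call of CIITA held in each of the 15 alternatives, where the log2 fold change was 1.72 to 1.83. The largest adjusted p, 0.0239, came without the set term. The fits that leave out either replicate 3 take the treatment effect from the 4-library set. They and the 4-library set alone are therefore not separate checks. Of all genes tested, 0.0441% were called without that term and 0.457% in the 4-library set alone.

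**Figure D1:**
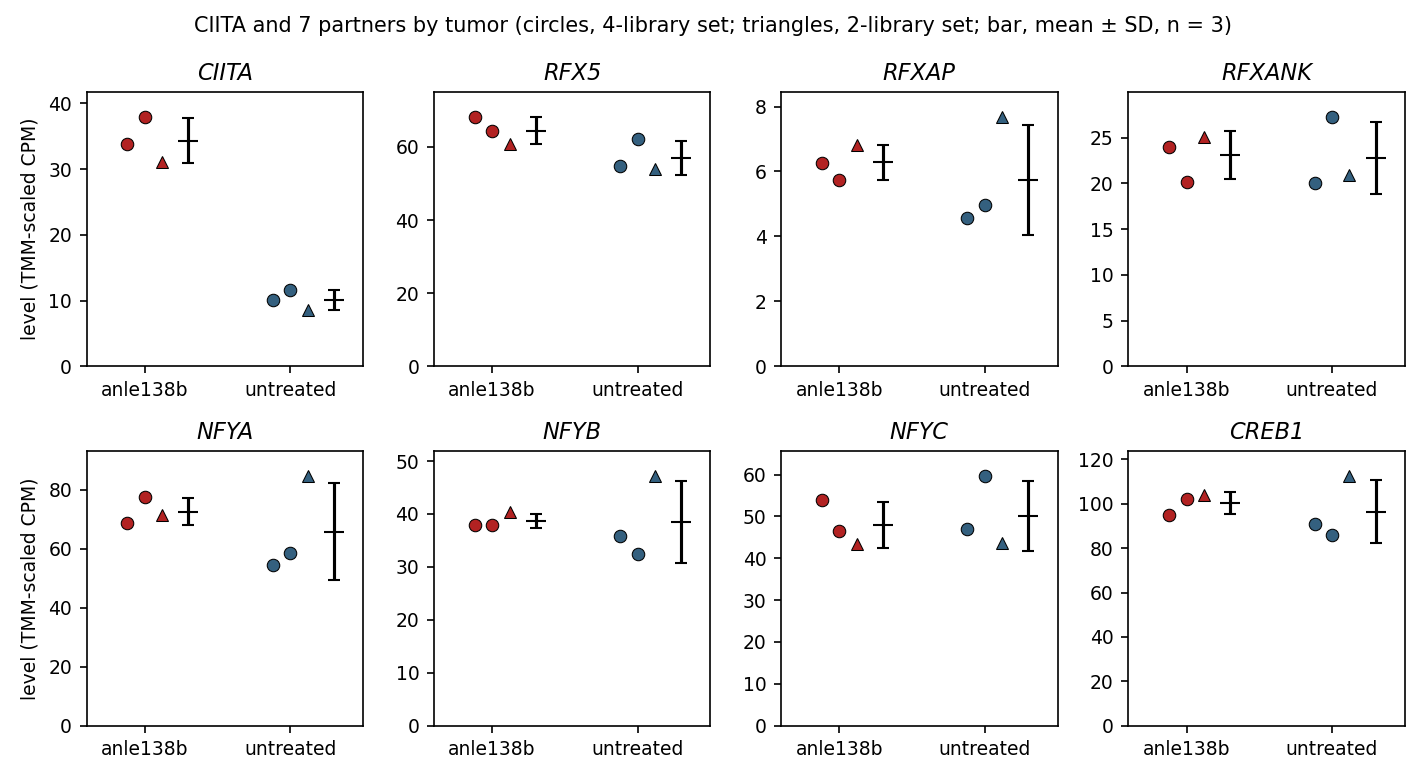
TMM-scaled CPM of CIITA and its 7 partners in each tumor, anle138b left and untreated right, with the mean and SD of 3 tumors beside the points; circles are the 4-library set and triangles the 2-library set. The treated CIITA values, 31.1 to 37.9 CPM, lie above the untreated values, 8.61 to 11.6 CPM, while the groups overlap for each partner.

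None of the 7 partners was called (0 of 7 by edgeR, 0 by DESeq2 and 0 by limma, with 0 at an unadjusted p under 0.05 in edgeR, a level that 8.49% of all genes tested reached). Their log2 fold changes ran from -0.06 to 0.18, with a median of 0.06, against a median of -0.01 over all genes tested. For each of the 7 the treated and untreated tumors overlapped, as for most genes. Among all genes tested 1.05% were called and 8.5% had groups that did not overlap. At these shares, 0 of 7 does not set the partners apart from other genes. The intervals bound the size of change that these data allow: across the 7, the lowest lower bound was 0.798-fold and the highest upper bound 1.46-fold.

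RFX5 carries the winged-helix DNA-binding domain of the RFX complex (chromosome 1, 151340640 to 151347357, minus strand). It had 68.2, 64.5 and 60.8 CPM in anle138b tumors and 54.7, 62.2 and 54.0 CPM in untreated tumors. Only untreated replicate 2 reached into the treated range. Its log2 fold change was 0.18 ± 0.10 (95% interval -0.04 to 0.40; adjusted p = 0.726), the highest of the 7, and its difference was 0.18 in the 4-library set and 0.17 in the 2-library set.

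RFXAP, an accessory subunit that RFX5 needs to assemble (chromosome 13, 36819224 to 36829104, plus strand), had the lowest CPM of the 8 in each group. It had 6.27, 5.75 and 6.83 CPM in anle138b tumors and 4.57, 4.96 and 7.68 CPM in untreated tumors. The highest value was thus an untreated one, replicate 3 of the 2-library set. With 67 to 193 counts per library its interval was the widest of the 7, 0.83-fold to 1.46-fold (log2 fold change 0.14 ± 0.18; adjusted p = 0.945).

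RFXANK, the ankyrin-repeat subunit that joins the complex together (chromosome 19, 19192229 to 19201869, plus strand), had 23.9, 20.1 and 25.1 CPM in anle138b tumors and 20.03, 27.3 and 20.9 CPM in untreated tumors. The groups covered almost the same range. Its log2 fold change was 0.03 ± 0.15 (95% interval -0.31 to 0.37; adjusted p = 0.989).

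NFYA gives NF-Y its contact with the CCAAT letters (chromosome 6, 41072945 to 41099976, plus strand). It had 68.7, 77.7 and 71.5 CPM in anle138b tumors and 54.4, 58.5 and 84.7 CPM in untreated tumors. The untreated tumors were both the lowest and the highest of the 6, and the high one was replicate 3. The log2 fold change was 0.16 ± 0.14 (95% interval -0.14 to 0.47; adjusted p = 0.888).

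NFYB and NFYC form the histone-fold pair on which NFYA sits. NFYB (chromosome 12, 104117077 to 104138289, minus strand) had 37.9, 37.9 and 40.3 CPM in anle138b tumors and 35.9, 32.4 and 47.1 CPM in untreated tumors. NFYC (chromosome 1, 40691648 to 40771603, plus strand) had 54.0, 46.6 and 43.3 CPM in anle138b tumors and 46.9, 59.6 and 43.7 CPM in untreated tumors. The treated tumors lay inside the untreated range for NFYB, and for NFYC the lowest treated tumor was just below it. The log2 fold changes were 0.02 ± 0.11 for NFYB (95% interval -0.24 to 0.27; adjusted p = 0.992) and -0.06 ± 0.12 for NFYC (95% interval -0.33 to 0.21; adjusted p = 0.970).

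CREB1, the cyclic AMP-responsive factor of the X2 box (chromosome 2, 207529737 to 207603431, plus strand), had 94.8, 102 and 104 CPM in anle138b tumors and 90.9, 86.1 and 112 CPM in untreated tumors. The treated values lay inside the untreated range. Its log2 fold change was 0.06 ± 0.10 (95% interval -0.16 to 0.29; adjusted p = 0.959).

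For 4 of the 7 partners the naming sets went in opposite directions with no overlap inside either. RFXANK also differed in sign (-0.09 in the 4-library set, 0.26 in the 2-library set), but its groups overlapped inside the 4-library set. RFXAP, NFYA, NFYB and CREB1 were higher in both treated than in both untreated tumors of the 4-library set and lower in the treated tumor of the 2-library set; 7.78% of all genes tested had this pattern. The interaction of treatment and set passed for 0 of the 8 members by edgeR, DESeq2 and limma. NFYA was the member with an unadjusted p under 0.05 in edgeR (adjusted p = 0.712), beside 6.59% of all genes at that unadjusted level and 0% called. For the set term itself the adjusted p of the 8 members ran from 0.138 to 0.970 in edgeR.

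**Figure D2:**
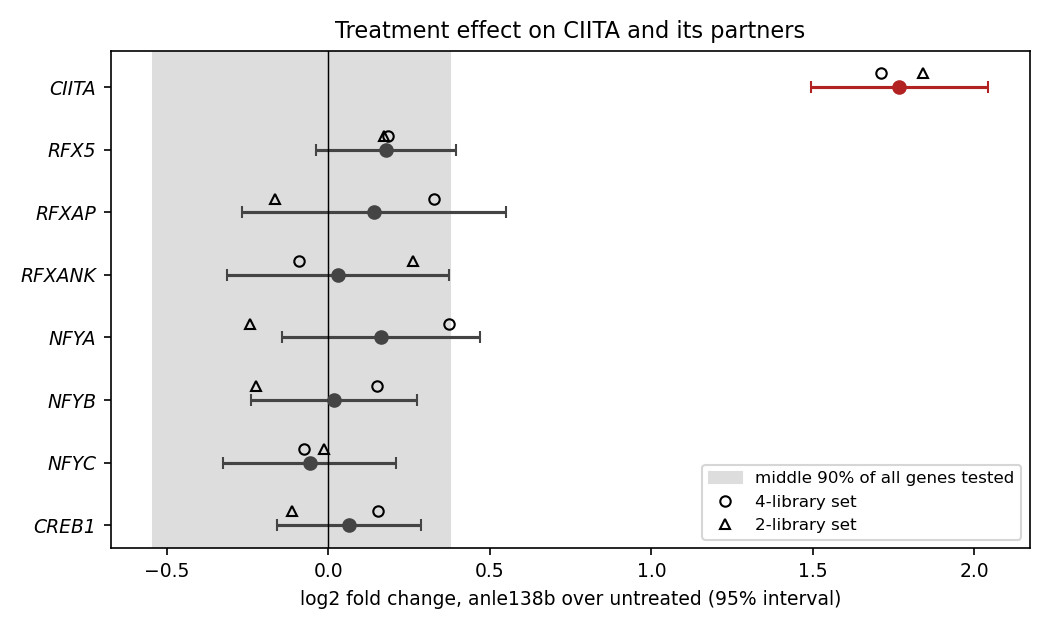
Log2 fold change of anle138b over untreated tumors for the 8 members with 95% intervals from the edgeR fit (filled points), and the difference within the 4-library set (open circles) and the 2-library set (open triangles). CIITA lies at 1.77, outside the grey band that holds the middle 90% of all genes tested (-0.54 to 0.38), and the 7 partners lie between -0.06 and 0.18.

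The ratio of CIITA reads to partner reads within a library does not depend on how libraries are scaled. Per 100 RFX5 reads there were 49.7, 58.9 and 51.2 CIITA reads in anle138b tumors and 18.6, 18.7 and 15.9 in untreated tumors. Per 100 NFYA reads there were 49.3, 48.8 and 43.5 in anle138b tumors and 18.7, 19.9 and 10.2 in untreated tumors. Per 100 CREB1 reads there were 35.7, 37.1 and 30.0 in anle138b tumors and 11.2, 13.5 and 7.66 in untreated tumors. In each of these, as for the other 4 partners, the lowest treated ratio exceeded the highest untreated ratio.

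The log2 ratio was higher in anle138b than in untreated tumors by 1.59 for RFX5, 1.60 for RFXAP, 1.74 for RFXANK, 1.60 for NFYA, 1.74 for NFYB, 1.82 for NFYC and 1.70 for CREB1. Each of the 7 exact two-sided permutation tests gave p = 0.1, the smallest that 3 against 3 tumors allow, and 0.1 after Benjamini-Hochberg adjustment over the 7. The 7 ratios share the CIITA counts, so they are not 7 independent results. Within the 4-library set the differences were 1.35 to 1.81, and in the 2-library set 1.59 to 2.10.

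**Figure D3:**
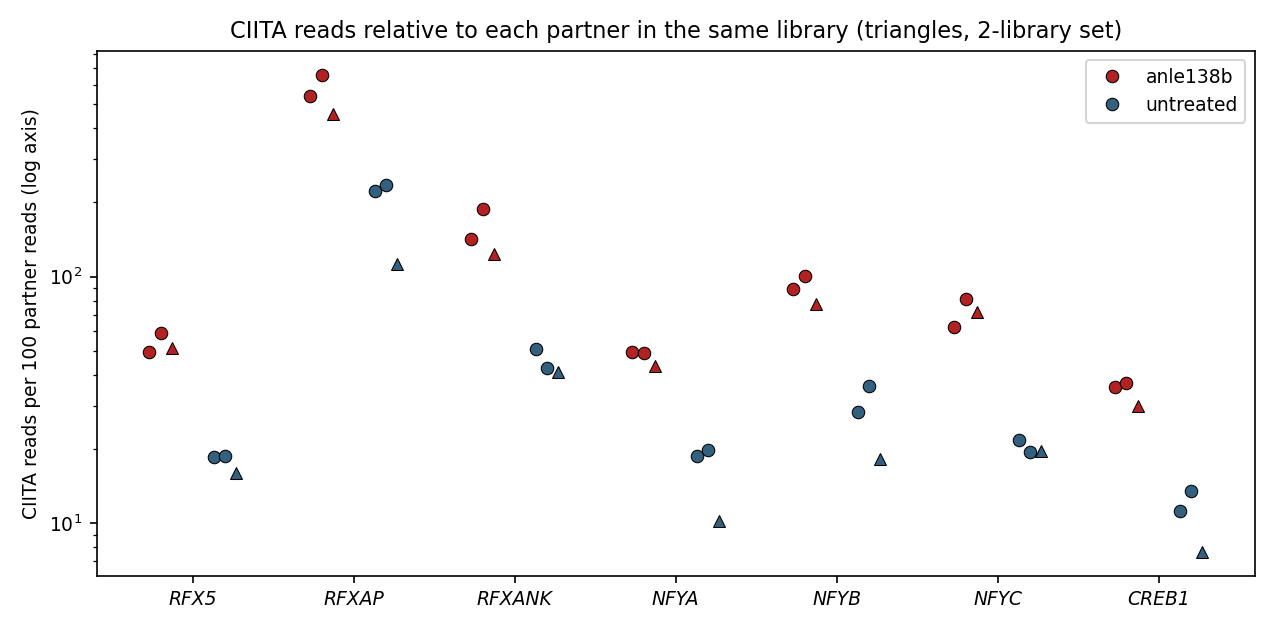
CIITA reads per 100 reads of each partner in the same library, on a log axis, with anle138b left of untreated for each partner; circles are the 4-library set and triangles the 2-library set. For RFX5 the treated tumors had 49.7 to 58.9 and the untreated tumors 15.9 to 18.7, and no partner has overlapping groups.

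Levels between genes were compared per kilobase of exon, as CPM per kilobase. Over the union of annotated exons, anle138b tumors averaged 19.1 ± 1.21 for NFYA, 14.1 ± 0.805 for RFX5, 10.5 ± 0.505 for CREB1, 9.21 ± 1.04 for RFXANK, 8.01 ± 0.914 for NFYC, 7.80 ± 0.285 for NFYB, 2.72 ± 0.234 for RFXAP and 1.65 ± 0.165 for CIITA (SD, n = 3). Neighbours in this order from CREB1 through NFYB overlapped between libraries, and NFYA, RFX5, RFXAP and CIITA did not overlap their neighbours. The order and these overlaps were the same in untreated tumors, which averaged 17.3 ± 4.31 for NFYA, 12.4 ± 0.991 for RFX5, 10.1 ± 1.46 for CREB1, 9.08 ± 1.57 for RFXANK, 8.36 ± 1.40 for NFYC, 7.76 ± 1.55 for NFYB, 2.49 ± 0.735 for RFXAP and 0.488 ± 0.0727 for CIITA.

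The order rests on the length used. The exon union of CIITA spans 20757 bases, against 4657 for the median of its RefSeq-linked coding transcripts. By that shorter length, chosen after the annotation was seen, CIITA averaged 7.37 ± 0.735 CPM per kilobase in anle138b tumors and 2.18 ± 0.324 in untreated tumors. RFXAP then averaged 2.73 ± 0.234 in anle138b tumors and 2.49 ± 0.735 in untreated tumors. On that scale anle138b tumors averaged 26.6 for NFYA, 25.1 for NFYC, 18.04 for RFX5, 16.9 for RFXANK, 13.2 for CREB1 and 11.01 for NFYB, so NFYC and RFXANK stood above CREB1. CIITA stood above RFXAP in every treated tumor, and the genes overlapped in the untreated tumors. The counts are per gene, so use of the alternative CIITA promoters, which differ between dendritic cells, B cells and cells exposed to interferon gamma, could not be read.

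CIITA shares 2416 exon bases with DEXI on the opposite strand, and the kit does not mark strand, so reads there cannot be told apart. DEXI (chromosome 16, 10928891 to 10942460) had 16.7, 17.6 and 10.6 CPM in anle138b tumors and 11.6, 11.4 and 8.61 CPM in untreated tumors. It was higher in treated tumors within each naming set, while the groups overlapped across sets. Its log2 fold change was 0.48 ± 0.13 (95% interval 0.18 to 0.78) and did not pass (adjusted p = 0.191). The unnamed gene ENSG00000280153 (10933903 to 10936280) shares all of its 2378 exon bases with CIITA on the same strand and had 0 counts in all 6 libraries. How reads in shared bases were counted is not stated. The 0 counts therefore do not show a lack of RNA there, and whether these bases gave reads to CIITA is unknown. Overlaps on the opposite strand also touched RFX5, RFXANK, NFYA, NFYC and CREB1, with at most 363 shared exon bases with any 1 gene, apart from CIITA.

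Of the 5 protein-coding genes within 250 kb of CIITA, 4 passed the low-count filter and 0 were called by edgeR, DESeq2 or limma, with DEXI at an unadjusted p under 0.05 in edgeR. NUBP1, a cytosolic iron-sulfur assembly factor, had a log2 fold change of 0.32 ± 0.15 (adjusted p = 0.647) and TVP23A one of 0.39 ± 0.23 (adjusted p = 0.763). CLEC16A, which takes part in mitophagy and starts 78.3 kb from the CIITA start, had one of -0.05 ± 0.11 (adjusted p = 0.976), with 33.0, 38.7 and 34.0 CPM in anle138b tumors and 35.6, 35.8 and 37.5 CPM in untreated tumors. TEKT5 had at most 32 counts in a library and was not tested. With 1.05% of all genes tested called, 0 of 4 does not set the neighbours apart from other genes.

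**Figure D4:**
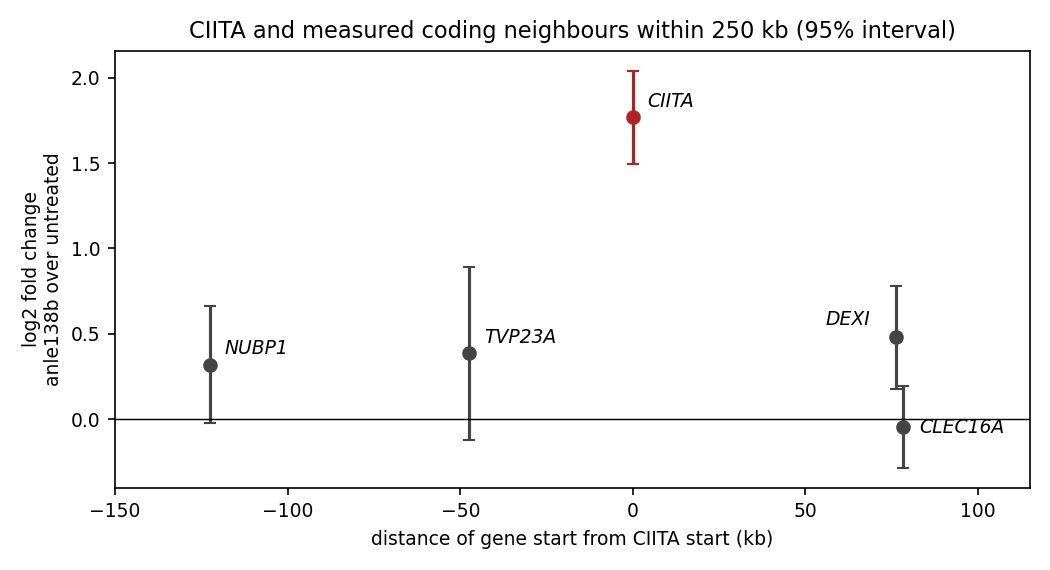
Log2 fold change of anle138b over untreated tumors with 95% intervals for CIITA and the 4 measured protein-coding genes around it, by distance of each gene start from the CIITA start in kb. CIITA lies at 1.77, and the 4 neighbours lie between -0.05 and 0.48.

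The routes that are known to switch CIITA on were read next. Over all genes tested, edgeR called 1.05%, and 8.49% had an unadjusted p under 0.05. With 1.05% called, 0 called in a list this short does not set it apart from other genes. The same holds for each list below with 0 called. Of the 12 genes listed for the interferon gamma route, 10 were tested and 0 were called by edgeR, DESeq2 or limma; the median log2 fold change was 0.13, against -0.01 over all genes. The interferon gamma gene IFNG had 0 counts in all 6 libraries, which allows up to 0.106 to 0.240 CPM per library. The counts are per human gene, so mouse interferon gamma from the host was not measured as such. IRF1, an interferon-induced factor that acts on a CIITA promoter, had 9.02, 10.3 and 10.6 CPM in anle138b tumors and 9.74, 9.55 and 7.72 CPM in untreated tumors (log2 fold change 0.17 ± 0.16). The groups overlapped. IRF1 was named for its role after its values were seen. The 1 gene of this list with an unadjusted p under 0.05, also seen afterwards, was the receptor chain IFNGR2 (log2 fold change 0.27, adjusted p = 0.338).

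Of the 10 listed factors that control CIITA in particular lineages, such as IRF4, IRF8, SPI1 and MITF, 8 were tested and 0 were called by edgeR, DESeq2 or limma, with 0 at an unadjusted p under 0.05 (log2 fold changes -0.21 to 0.13). The 13 corepressors and silencing enzymes, such as EZH2, HDAC1 and DNMT1, likewise had 0 called by the 3 tools and 0 at an unadjusted p under 0.05 (log2 fold changes -0.13 to 0.17).

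Of the 15 coactivators and machinery genes that CIITA is known to recruit, 1 rose and 0 fell. Among all genes tested 0.656% were called raised and 0.397% lowered. KAT2B, the histone acetyltransferase PCAF, had 98.6, 111 and 183 CPM in anle138b tumors and 70.1, 58.7 and 103 CPM in untreated tumors. Treated tumors were higher within each naming set, the groups overlapped across sets, and both tumors of the 2-library set were the highest of their group. Its log2 fold change was 0.74 ± 0.11 (adjusted p = 0.0110), and the call was lost without anle138b replicate 3 (adjusted p = 0.0776) or untreated replicate 3 (adjusted p = 0.0560) and without the set term. CREBBP, a coactivator named for its role after its value was seen, had a log2 fold change of -0.15 ± 0.12 (adjusted p = 0.860).

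Relatives of the members gave a similar picture. In the RFX family 6 of 8 genes were tested and 0 were called by edgeR, DESeq2 or limma, with 0 at an unadjusted p under 0.05 (median log2 fold change -0.01). In the CREB and ATF family 14 of 16 were tested and 0 were called by the 3 tools (median 0.01), with CREM, ATF3 and ATF5 at an unadjusted p under 0.05. CREM, a CREB1 paralog, had 24.2, 23.4 and 24.3 CPM in anle138b tumors and 27.6, 30.3 and 29.3 CPM in untreated tumors, so each treated tumor was below each untreated tumor, as for 4.47% of genes tested. Its log2 fold change of -0.28 ± 0.11 did not pass (adjusted p = 0.438). All 7 histone-fold relatives of NF-Y were tested and 0 were called by the 3 tools (0 at an unadjusted p under 0.05; median 0.06).

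Of the 13 NLR family genes, to which CIITA belongs, 7 were tested and CIITA alone was called. NLRC5, the class I transactivator that works through the same RFX and NF-Y partners, had 14.99, 14.5 and 15.8 CPM in anle138b tumors and 11.6, 15.3 and 8.44 CPM in untreated tumors. One untreated tumor lay inside the treated range, and the log2 fold change of 0.40 ± 0.19 did not pass (adjusted p = 0.629).

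Targets of the same factors were compared with those that need CIITA. Of the 12 class II targets listed, 11 were tested, 10 rose and 0 fell (median log2 fold change 2.82). Of the 10 targets that rose in this fit, 7 kept the call in the 4-library set alone and 2 without the set term. The number kept was also 7 without anle138b replicate 3, a fit that takes the treatment effect from the same 4-library set. HLA genes share near-identical sequence, so reads may be split between them, and HLA-DOA had 2.14, 1.12 and 10.4 CPM in anle138b tumors and 0.183, 0.222 and 1.40 CPM in untreated tumors, which overlap. The treated tumors lay between 35.5 and 149 CPM for HLA-DRA, against 0.0741 to 1.53 CPM in the untreated tumors. The 7 class I genes, whose promoters carry a like module, had 0 called by edgeR (median 0.17, with HLA-B and HLA-E at an unadjusted p under 0.05), 1 by DESeq2 and 0 by limma. The 12 cell cycle genes known as NF-Y targets had 0 called by the 3 tools (median 0.11, 0 at an unadjusted p under 0.05). The CREB targets had 0 of 13 called by the 3 tools (median -0.04, with NR4A2 and CREM at an unadjusted p under 0.05).

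HLA-DRA and CIITA differed in how they stood between the naming sets. HLA-DRA had 40.2 and 35.5 CPM in treated tumors of the 4-library set and 149 CPM in the treated tumor of the 2-library set, where CIITA had its lowest treated value. The set term was 2.02 ± 0.19 for HLA-DRA (adjusted p = 0.000173), that is higher in the 2-library set, and -0.26 for CIITA, which did not pass. Of all genes tested 8.32% were called higher and 7.14% lower in that set.

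**Figure D5:**
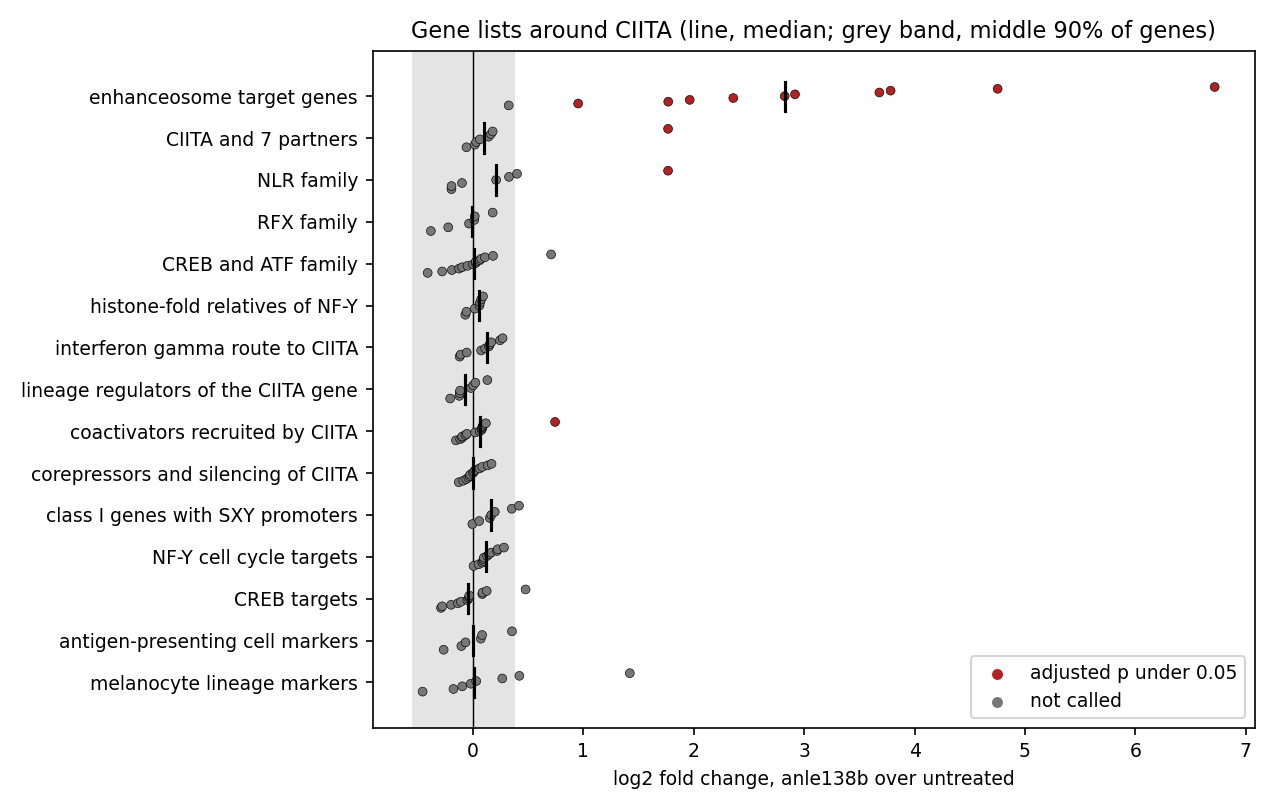
Log2 fold change of anle138b over untreated tumors for each tested gene of 15 lists, 1 row a list, with the median as a line and the middle 90% of all genes as a grey band. Red points passed an adjusted p of 0.05: 10 of 11 class II targets, CIITA (shown in the rows of the 8 members and of the NLR family) and KAT2B.

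Markers of antigen-presenting cells were read beside the rise of CIITA. Of 14 genes of B cells, dendritic cells and macrophages, 6 passed the filter and 0 were called by edgeR, DESeq2 or limma, with 0 at an unadjusted p under 0.05. Their log2 fold changes ran from -0.27 to 0.35, with a median of 0.00. The summed level of the 14 was 34.6 to 53.5 CPM in anle138b tumors and 27.0 to 46.7 CPM in untreated tumors, and FLT3 and CD1C had at most 3 counts in every library. PTPRC, the leukocyte gene CD45, was picked from this list by no set rule and does not stand for it. It had 4.66, 3.99 and 4.10 CPM in anle138b tumors and 4.81, 4.44 and 4.45 CPM in untreated tumors. These are human genes in a xenograft, and how mouse reads were handled is not stated. Their levels can therefore not be assigned to human or mouse cells, and they are no measure of the host's cells.

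The genes most like CIITA were sought by Pearson correlation of log2 CPM over the 6 libraries among 14077 genes with a symbol and a mean log2 CPM of at least 1. The 5 highest were SLC1A4 (0.995), FN1 (0.993), ALDH1A3 (0.992), EMP1 (0.992) and CYGB (0.990). The 6 points share 2 treatment groups and 2 naming sets, so the values are a description. SLC1A4, a neutral amino acid transporter, had 318, 346 and 347 CPM in anle138b tumors and 93.2, 104 and 78.6 CPM in untreated tumors (log2 fold change 1.88 ± 0.12, adjusted p = 0.000110). CYGB, cytoglobin, had a log2 fold change of 1.97 ± 0.10, ALDH1A3, a retinaldehyde dehydrogenase, 1.27 ± 0.11, and FN1, fibronectin, 1.62 ± 0.15. EMP1 had one of 0.37 ± 0.09 and did not pass (adjusted p = 0.111). Among the partners RFX5 had a correlation of 0.82 with CIITA, exceeded by 2.47% of these genes, and the other 6 had correlations from -0.07 to 0.29.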

How the data were processed

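Per the labels' protocols, TRIzol-extracted RNA went into the TruSeq RNA Library Prep Kit v2, which keeps no strand information. Each tumor has 1 deposited file of raw counts per Ensembl gene; the submitters' processing notes name hg38, featureCounts 1.5.0-p1, STAR 2.5.2a and bcl2fastq 2.17.1.14. The sources used here do not give the annotation release, the counting options or the handling of mouse reads.

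In edgeR 4.0.16 (R 4.3.3), low counts were removed with filterByExpr on the treatment groups (at least 10 counts, 15 in total), libraries scaled by TMM and genes tested by quasi-likelihood for treatment beside a naming-set term, which leaves 3 residual degrees of freedom and 2 with the interaction. Adjusted p-values are Benjamini-Hochberg over all 20423 genes tested, with a threshold of 0.05. Standard errors come from the F statistic and 95% intervals from its t distribution. CPM are TMM-scaled; log2 CPM used a prior count of 2. No pair of libraries agreed within sampling noise (chi-square per degree of freedom 10.5 to 58.8). A count of 0 allows at most 0.106 to 0.240 CPM (3 counts), for counting error only. Positions and exon lengths are from GENCODE 29 (GRCh38), which held 58542 of the 60617 identifiers; all 169 list entries were matched. Ratios were tested with scipy 1.17.1. The fit was tested on simulated counts whose spread followed mean level alone, with no interaction of treatment and set. The outcome of that test is not given here, so it lends no weight to the results.

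The result was recomputed without the set term, with 3 other scalings (DESeq2, upper quartile, library size), with no low-count filter or a minimum of 50 counts in 3 libraries, with DESeq2 1.42.0 and limma 3.58.1 voom, in the 4-library set alone and with each tumor left out. Named genes are the members, called genes of the other 14 lists, coding neighbours within 250 kb, the 5 genes most like CIITA, 3 class II genes, and others. Some of the others are marked where they stand. NLRC5, CREM and PTPRC were also named outside these rules. The members and lists were chosen with earlier results of these data known.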

Additional observations from a re-analysis of the deposited data

Results flagged for a closer look

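RFXAP, NFYA, NFYB and CREB1 are given here because the treated tumors stood above the untreated tumors in the 4-library set and below in the 2-library set. The interaction of treatment and set, as the effect in the 2-library set minus that in the 4-library set, was -0.51 ± 0.35 for RFXAP, -0.62 ± 0.21 for NFYA, -0.37 ± 0.21 for NFYB and -0.27 ± 0.20 for CREB1 on the log2 scale. None of these passed over all genes in edgeR (adjusted p from 0.712 to 0.827). In either direction, 16% of all genes tested had opposite directions in the 2 sets. In untreated replicate 3, which is the untreated tumor of the 2-library set and holds the highest value of each of these 4 genes, mitochondrially encoded genes took 3.09% of counts, the highest share of the 6 libraries; its part in the result was not tested.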

How the results depend on the processing

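CIITA was called and raised in all 15 alternatives (log2 fold change 1.72 to 1.83), and 0 of 7 partners were called in any of them. The number of genes called over the whole table was 215. It was 9 without the set term, 754 with no low-count filter, 412 with the DESeq2 Wald test and 92 in the 4-library set alone, and 89 to 392 when each tumor was left out. The cause was not tested. Directions turned for values near 0 that were not called: NFYB was -0.0011 with upper-quartile scaling, and in the 4-library set alone RFXANK was -0.096 and CLEC16A 0.0069. With each tumor left out the ranges were -0.059 to 0.16 for NFYB, -0.12 to 0.050 for NFYC, -0.097 to 0.19 for RFXANK and -0.13 to 0.017 for CLEC16A. EMP1 passed with no low-count filter and by the DESeq2 Wald test. The ratios of CIITA to its partners kept their direction in every alternative run. No paired analysis was possible because the shared numbers 1 to 3 only name tumors, and neither titles nor other labels pair them; the set term already holds the 2-library set, 1 tumor of each group, apart. With 3 tumors a group, changes of a partner inside the intervals above are not excluded. The smallest change that could be detected was not computed.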
